A study of Mus musculus with 2 samples.

Results

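The genes described here encode proteins of the nucleolus and of ribosome biogenesis, the chain of steps in which ribosomal RNA is made and joined to ribosomal proteins. They are 40 named genes that were chosen by function. Each of the 40 had at least 1 probe set annotated to that gene alone, among 18193 genes measured in this way. RNA from mouse embryo fibroblasts (MEFs) of Ebp1 knock out mice was compared with RNA from wild type MEFs, on 1 array per genotype. The knock out mice carry the retroviral gene trap vector VICTR20 in intron 2 of Pa2g4, the gene that encodes Ebp1, and come from 129/SvEvBrd embryonic stem cells and C57BL/6 mice. Both cultures were made from day 12.5 embryos, grown in medium with fetal bovine serum and taken at passage 2. The labels and methods do not say whether a culture pooled several embryos.

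Ribosomal RNA genes are transcribed by RNA polymerase I in the nucleolus. The precursor RNA is modified by small nucleolar ribonucleoproteins (snoRNPs), of which the box C/D class methylates ribose and the box H/ACA class makes pseudouridine. It is then cut and folded inside pre-ribosomal particles that become the small and the large ribosomal subunit. Fibroblasts in growth medium make ribosomes throughout, and the transcription factor Myc is known to activate many of these genes.

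Each probe set has 1 signal per array in linear intensity units, scaled by the authors to the same target on both arrays. Since there was 1 array per genotype, no value has a replicate, and no error, test or p-value is given. Ratios are knock out over wild type, on the log2 scale. Pa2g4 itself stood at 1178 in knock out MEFs, against 1835 in wild type MEFs (log2 ratio -0.64), and all 5 of its probe sets were lower in knock out MEFs. On the reported probe set the signal was thus lower but still far above 100, so the arrays did not show a loss of the transcript. The dimmest probe set had 34.7 in knock out MEFs and 60.8 in wild type MEFs, both under 100. The paper reports that Ebp1 mRNA was absent from knock out MEFs by RT-PCR and the protein by Western blot. A trap in an intron deletes no exon and the positions of these probe sets were not analysed here, so their signals are no check of the genotype. The 9 hybridization spike-in probe sets, which do not come from the cells, were all brighter on the array of the knock out MEFs, on average 1.31-fold. All 10 fibroblast markers reached 100 on both arrays, with a summed signal of 60548 in knock out MEFs and 58867 in wild type MEFs, and 5 of them were lower in knock out MEFs, the lowest being Fap at a log2 ratio of -1.40. The 6 epithelial markers were all higher in knock out MEFs, with a summed signal of 1880 in knock out MEFs and 472 in wild type MEFs, while Cdh1, Krt8 and Krt18 were under 100 on both arrays. Most of that sum was Epcam, with 1350.5 in knock out MEFs and 174 in wild type MEFs, and the other 5 summed to 529.6 in knock out MEFs and 299 in wild type MEFs. All 4 measured blood markers, 4 of 5 endothelial markers and 3 of 4 skeletal muscle markers were under 100 on both arrays, and the 4 neural markers summed to 1658 in knock out MEFs and 1368 in wild type MEFs. The part of other cells in the values below was not tested. In such a bulk sample, fewer cells of a type and less RNA per cell cannot be told apart.

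Of the 40 genes, 30 had a higher signal in knock out MEFs and 10 a lower one. Their median log2 ratio was 0.18, and the ratios lay between -0.60 for Imp4 and 0.80 for Nop58. All 40 had a signal of at least 100 on both arrays. Among all 10553 genes with at least 100 on at least 1 array, 41.9% were higher in knock out MEFs and the median was -0.06. The direction of the group depends on the scaling. When the arrays were scaled to the spike-ins, which lowers every log2 ratio by 0.39, 9 of the 40 genes were higher and 31 lower, and their median was -0.21, against -0.46 for all genes. When both arrays were set to an equal median signal, 25 were higher and the median was 0.08, against -0.17 for all genes. The median of the 40 genes lay 0.25 above that of all genes with at least 100. Median centring and spike-in scaling take the same amount from every ratio and leave this distance as it is by construction, and over the other settings it was between 0.20 and 0.27.

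**Figure D1:**
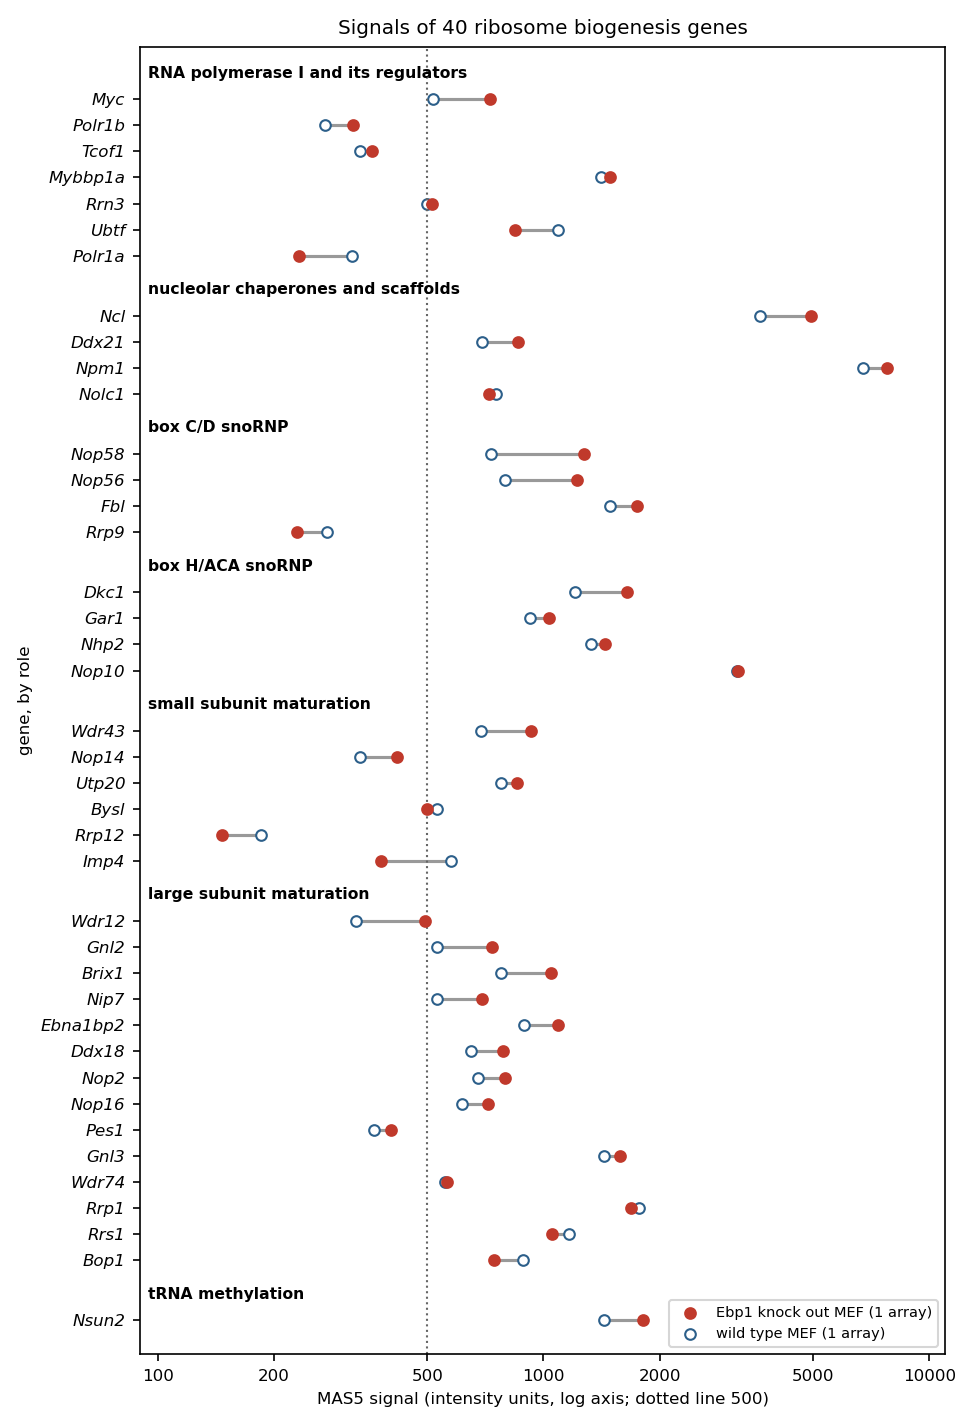
Signal of each of the 40 genes on the 2 arrays (intensity units, log axis), grouped by role, with 1 point for Ebp1 knock out MEFs and 1 for wild type MEFs. Of the 40 genes, 30 have the knock out point on the higher side with the deposited signals, and 9 do when the arrays are scaled to the spike-ins.

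The differences were small for single genes. Over 1.5-fold, 3 of the 40 genes were higher in knock out MEFs (Nop58, Nop56 and Wdr12) and 1 was lower (Imp4). Of all genes with at least 100 on at least 1 array, 5.27% were over 1.5-fold higher and 7.3% over 1.5-fold lower. No gene of the 40 differed by over 2-fold. The study used a minimum of 500 expression units, which 32 of the 40 genes reached on at least 1 array. Of these 32, 25 were higher and 7 lower, where 42.2% of all 5014 genes at that minimum were higher. Over 1.5-fold, 2 of the 32 were higher and 1 lower, where 2.99% of the 5014 genes were higher and 5.11% lower. None of the 32 passed 2-fold, where 0.758% of the 5014 genes were higher and 1.06% lower. Counts over 1.5-fold therefore do not set the 40 genes apart from the background, and the description below rests on many small ratios in the same direction.

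The genes closest to the minimum on the inner side were Rrn3, with 514 in knock out MEFs and 498 in wild type MEFs, and Bysl, with 499 in knock out MEFs and 530.05 in wild type MEFs. Closest on the outer side was Wdr12, with 493 in knock out MEFs and 328 in wild type MEFs. The others under 500 on both arrays were Nop14, Pes1, Rrp9, Rrp12, Polr1a, Polr1b and Tcof1. Rrn3 reached 500 only on the knock out array, whereas Imp4 and Bysl reached it only on the wild type array. The other 29 genes above the minimum reached it on both arrays.

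**Figure D2:**
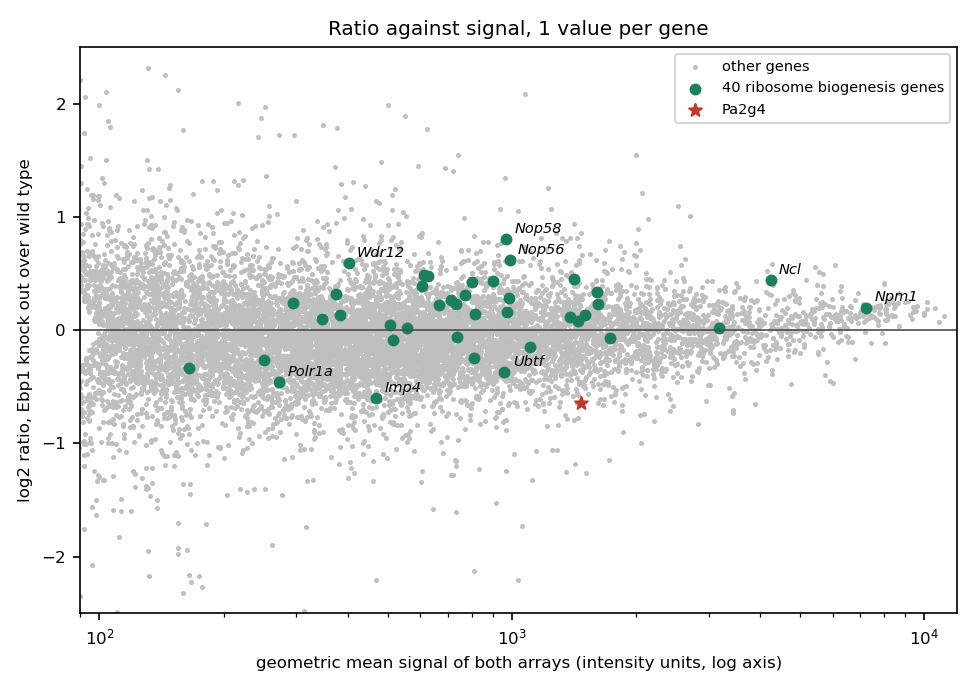
Log2 ratio, knock out over wild type, (vertical axis) against the geometric mean signal of both arrays (horizontal axis, intensity units, log axis) for genes with at least 100 on at least 1 array, of which 254 lie outside the plotted range. The 40 genes are coloured, Pa2g4 is marked and all other genes are grey. The coloured points lie mostly a little above 0 (median 0.18) and within the cloud of other genes, and with the spike-in scaling every point would lie 0.39 lower.

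The 2 highest ratios among the 40 were those of Nop58 and Nop56, 2 of the 4 genes for proteins of the box C/D snoRNP. Nop58, a core protein of the particle, had 1277 in knock out MEFs and 732 in wild type MEFs (log2 ratio 0.80). Its partner Nop56 had 1225 in knock out MEFs and 796 in wild type MEFs (0.62), and its other probe set had 1053.5 in knock out MEFs and 829.9 in wild type MEFs (0.34). Of the 5014 genes that reached 500, 1.24% had a higher ratio than Nop58. Nop58 was picked as the highest of the 40, so a place near the top is partly given by that choice. Nop58 and Nop56 were also higher in knock out MEFs with the spike-in scaling. Fbl encodes fibrillarin, the methyltransferase of the same particle, and had 1746 in knock out MEFs and 1491 in wild type MEFs (0.23). Its other probe set was at 1240.2 in knock out MEFs and 1199 in wild type MEFs (0.05). Rrp9, which binds the U3 snoRNA used for cutting the precursor, went the other way, with 229 in knock out MEFs and 275 in wild type MEFs (-0.26). The core proteins were thus unequal in ratio, with Fbl closer to 0 than Nop56 and Nop58 on both of its probe sets.

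The sequence just before the annotated start is shown for Nop58 and Nop56, the genes with the 2 highest ratios, and for Imp4, the gene with the lowest ratio. Each line gives 150 bases upstream of the start, 5′ to 3′ on the strand of the gene, from the RefSeq promoters of GRCm38.p6. Capitals mark matches to CCGGAA or its reverse complement TTCCGG, the core of sites of ETS factors, and to CACGTG, the E-box that Myc can bind. Nop58 lies at chr1:59684856-59685005 on the plus strand, Nop56 at chr2:130274262-130274411 on the plus strand and Imp4 at chr1:34439679-34439828 on the plus strand.
Nop58: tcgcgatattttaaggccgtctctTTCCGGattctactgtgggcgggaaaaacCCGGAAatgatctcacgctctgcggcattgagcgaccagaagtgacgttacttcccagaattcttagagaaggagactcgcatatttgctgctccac
Nop56: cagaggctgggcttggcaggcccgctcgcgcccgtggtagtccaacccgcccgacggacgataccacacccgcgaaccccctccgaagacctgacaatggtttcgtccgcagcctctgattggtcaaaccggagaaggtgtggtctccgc
Imp4: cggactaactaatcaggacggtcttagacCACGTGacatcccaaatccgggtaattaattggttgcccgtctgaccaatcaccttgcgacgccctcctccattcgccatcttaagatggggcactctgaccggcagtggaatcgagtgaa
The stretch of Nop58 holds 1 match to each orientation of the ETS core, that of Imp4 holds an E-box, and that of Nop56 holds none of these letters. The GC content was 50% for Nop58, 65.3% for Nop56 and 52.7% for Imp4.

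All 4 genes of the box H/ACA snoRNP were higher in knock out MEFs with the deposited signals, with a median log2 ratio of 0.14. Dkc1, which encodes dyskerin, the pseudouridine synthase of the particle, had 1651 in knock out MEFs and 1207 in wild type MEFs (0.45). Its other probe sets gave 613 in knock out MEFs and 339.9 in wild type MEFs (0.85), and 460.3 in knock out MEFs and 317 in wild type MEFs (0.54). Dkc1 was therefore higher on each of its 3 probe sets, and it was higher also with the spike-in scaling. Gar1 had 1032 in knock out MEFs and 920.3 in wild type MEFs (0.16), from a probe set whose name ending marks that its probes can also match other transcripts. Nhp2 had 1442 in knock out MEFs and 1328 in wild type MEFs (0.12), from a probe set with the same ending. Its other probe set, without that ending, had 916 in knock out MEFs and 649 in wild type MEFs (0.50). Nop10, the smallest protein of the particle, had nearly the same signal on both arrays on its reported probe set, with 3202 in knock out MEFs and 3169 in wild type MEFs (0.02), and its other probe set had 2485 in knock out MEFs and 2129 in wild type MEFs (0.22). Gar1, Nhp2 and Nop10 were below 0 with the spike-in scaling.

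Among the nucleolar chaperones and scaffolds, 3 of 4 were higher in knock out MEFs. Ncl encodes nucleolin, which binds ribosomal RNA and its genes, and had 4940.4 in knock out MEFs and 3639.6 in wild type MEFs (0.44). Npm1 encodes nucleophosmin, the histone and ribosome chaperone of the outer nucleolus, and had 7747 in knock out MEFs and 6746 in wild type MEFs (0.20). Ddx21, an RNA helicase that acts on polymerase I transcription and on snoRNAs, had 859 in knock out MEFs and 693 in wild type MEFs (0.31). Of these 3 genes, Npm1 and Ddx21 were below 0 with the spike-in scaling and Ncl did not. Nolc1, which encodes the snoRNP chaperone Nopp140, had 721 in knock out MEFs and 753 in wild type MEFs (-0.06).

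Other probe sets of these genes gave larger ratios. A further probe set of Ncl had 2384 in knock out MEFs and 739 in wild type MEFs (1.69), which is the highest ratio among all probe sets of the 40 genes with at least 100 on at least 1 array. The remaining probe sets of Ncl with at least 100 gave 0.28 and -0.09. The second probe set of Npm1 had 4936 in knock out MEFs and 2631 in wild type MEFs (0.91), and those of Nolc1 gave 0.98 and 0.58, opposite in sign to the value reported for the gene. The size of the ratio of Ncl, Npm1 and Nolc1 thus depends on the probe set, and the positions of the probe sets along the transcripts were not analysed here.

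**Figure D3:**
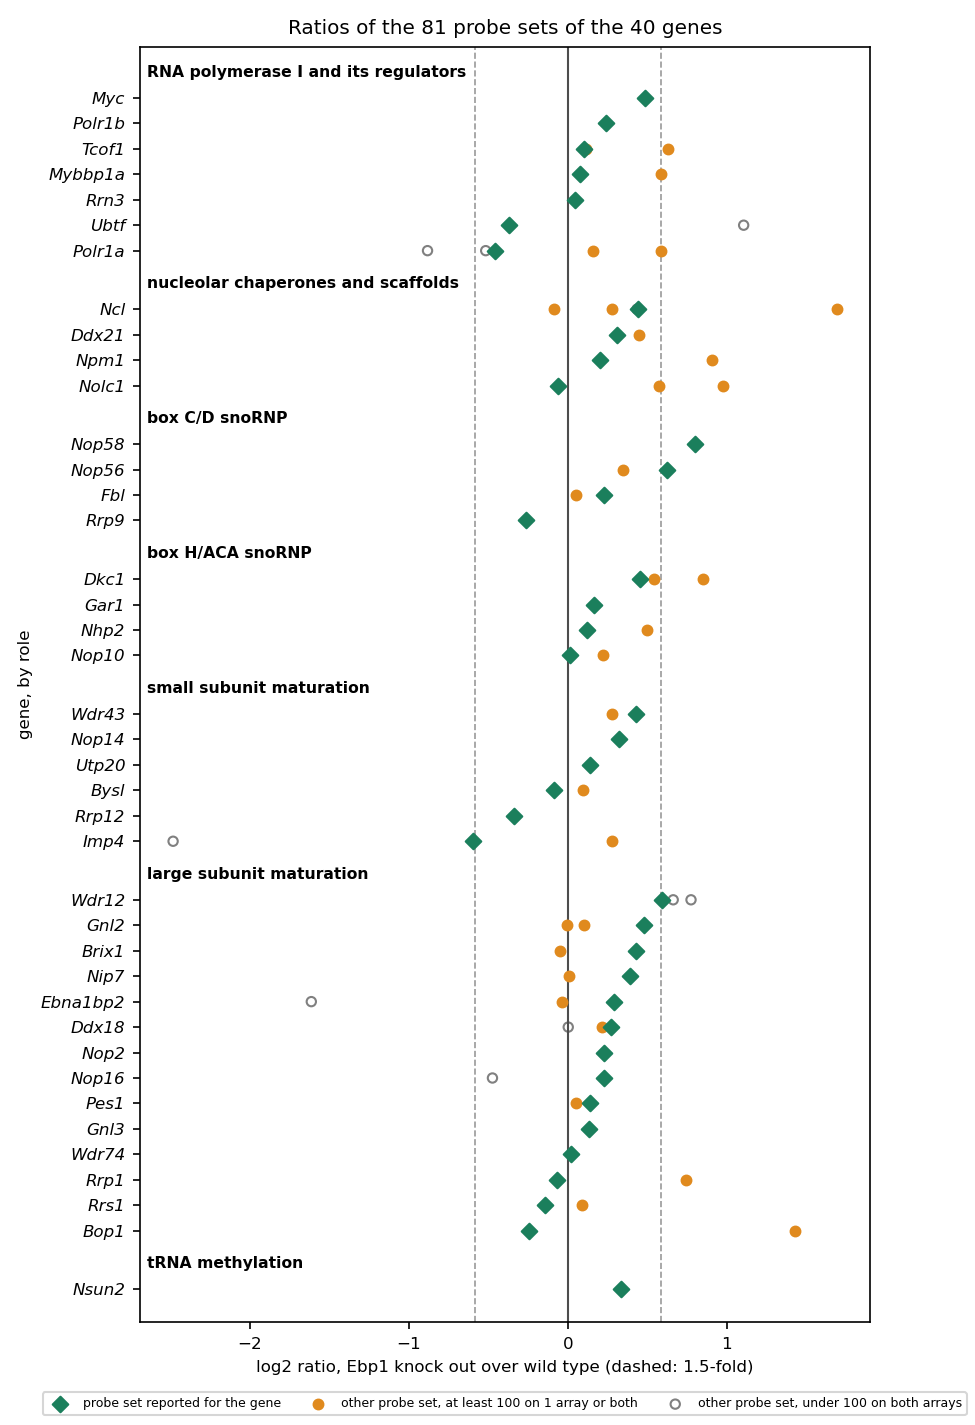
Log2 ratio, knock out over wild type, (horizontal axis) for every probe set of the 40 genes, 1 line per gene, with the reported probe set, the other probe sets and those under 100 on both arrays drawn differently. Of the probe sets with at least 100, 57 lie above 0 and 14 below with the deposited signals, and every point would lie 0.39 further left with the spike-in scaling.

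Over all 81 probe sets of the 40 genes, 71 had at least 100 on at least 1 array. Of these 71, 57 were higher in knock out MEFs and 14 lower, and 10 were over 1.5-fold higher against 1 over 1.5-fold lower. Across all 17780 probe sets with a single gene at that signal, 48.0% were higher, 9.64% over 1.5-fold higher and 6.74% over 1.5-fold lower. Leaving aside the reported probe sets, 31 others remained, of which 27 were higher and 4 lower, with a median log2 ratio of 0.28. On the reported probe sets alone, 41.9% of all 10553 genes at that signal were higher and 5.27% over 1.5-fold higher. Both shares are below those of all probe sets, so other probe sets ran higher across the whole array too. Their own share over all genes was not computed, so the 31 have no matching background here. Among the 24 genes with at least 2 probe sets at 100 or more, 13 had all of them higher, none had all of them lower, and 11 had probe sets on both sides of 0. Such counts were not made over all genes, so they do not set these genes apart. These counts use the deposited signals, and probe sets of 1 gene share its transcripts and are not replicates.

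The genes of RNA polymerase I and its regulators were mixed, with 5 of 7 higher and a median log2 ratio of 0.08. Myc had 725 in knock out MEFs and 519 in wild type MEFs (0.48), the highest ratio of the 7. Polr1b, the second largest subunit of the polymerase, had 320.1 in knock out MEFs and 271 in wild type MEFs (0.24). Polr1a, the largest subunit, had 233 in knock out MEFs and 319.6 in wild type MEFs (-0.46), so the reported probe sets of both core subunits differed in sign. The other probe sets of Polr1a at 100 or more were higher in knock out MEFs, the brighter of them with 238 in knock out MEFs and 158 in wild type MEFs (0.58). Ubtf, the upstream binding factor that opens ribosomal RNA genes, had 843 in knock out MEFs and 1091 in wild type MEFs (-0.37). Its second probe set did not reach 100 on either array and gives no direction. The initiation factor gene Rrn3, which encodes TIF-IA, lay close to 0 at 0.05. Tcof1 encodes treacle, a cofactor of the polymerase, and had 359 in knock out MEFs and 335 in wild type MEFs (0.10), with ratios of 0.63 and 0.12 on its other probe sets. Mybbp1a, a nucleolar protein that binds Myb and represses ribosomal RNA synthesis, had 1488 in knock out MEFs and 1409.6 in wild type MEFs (0.08), with 844 in knock out MEFs and 563 in wild type MEFs on its other probe set (0.58). In this set only Myc was above 0 with the spike-in scaling.

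Maturation of the small subunit showed no common direction, with 3 of 6 genes higher and a median log2 ratio of 0.03. Wdr43 had 928 in knock out MEFs and 689.9 in wild type MEFs (0.43), and 763 in knock out MEFs and 629.8 in wild type MEFs on its other probe set (0.28). Nop14 had 418 in knock out MEFs and 334 in wild type MEFs (0.32), and Utp20, a large protein of the small subunit processome, had a ratio of 0.14. The processome is the particle that forms on the nascent precursor, and these 3 genes all encode parts of it. Imp4, a protein of the same particle that acts with the U3 snoRNA, had 380.4 in knock out MEFs and 576 in wild type MEFs (-0.60). Its other probe set at 100 or more pointed the other way, with 395 in knock out MEFs and 326 in wild type MEFs (0.28). Rrp12, an export factor of pre-ribosomal particles, had 147 in knock out MEFs and 186 in wild type MEFs (-0.34), both close to the limit of 100 under which signals were treated as low. Bysl, which encodes bystin, lay close to 0 at -0.09. Imp4 was the only gene of the 40 over 1.5-fold lower with the deposited signals, and its 2 usable probe sets disagreed.

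Maturation of the large subunit was the biggest set, and 11 of its 14 genes were higher in knock out MEFs, with a median log2 ratio of 0.23. The PeBoW complex, which is needed for cutting the precursor of the large subunit RNAs, consists of the products of Pes1, Bop1 and Wdr12, and its genes differed in direction. Wdr12 had 493 in knock out MEFs and 328 in wild type MEFs (0.59), Pes1 had 402 in knock out MEFs and 365 in wild type MEFs (0.14), and Bop1 had 745 in knock out MEFs and 884 in wild type MEFs (-0.25). A dim second probe set of Bop1 gave 119.6 in knock out MEFs and 44.4 in wild type MEFs (1.43), but 1 of these signals is under 100. The direction of Bop1 is therefore not settled by its probe sets.

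The GTPase gene Gnl2 had 738 in knock out MEFs and 529 in wild type MEFs (0.48), while its dimmer probe sets were near 0 at -0.01 and 0.10. Gnl3, which encodes the related GTPase nucleostemin, had 1577 in knock out MEFs and 1439.5 in wild type MEFs (0.13). Brix1, an assembly factor of early large subunit particles, had 1044 in knock out MEFs and 774 in wild type MEFs (0.43). Nip7 had 694 in knock out MEFs and 529 in wild type MEFs (0.39), with a dimmer probe set at 0.01. In Gnl2, Brix1 and Nip7 the bright probe set was higher and each dimmer one with at least 100 lay within 0.11 of 0. Ebna1bp2, another assembly factor, had 1088 in knock out MEFs and 891 in wild type MEFs (0.29), with a dim probe set at -0.04. The assembly factor genes Ddx18 and Nop16 had ratios of 0.27 and 0.22, and Nop2, which encodes a methyltransferase of the large subunit RNA, had 0.23. Wdr74 was at 0.02. Rrp1 was at -0.07, with 1686 in knock out MEFs and 1771 in wild type MEFs, although its second probe set had 879 in knock out MEFs and 525 in wild type MEFs (0.74). Rrs1, whose product helps place the 5S RNA, had 1051 in knock out MEFs and 1163 in wild type MEFs (-0.15). The name ending of this probe set also marks possible matches to other transcripts. Its other probe set, without such an ending, had a ratio of 0.09. Nsun2, which encodes a methyltransferase of tRNA and stands apart from the other genes by function, had 1807 in knock out MEFs and 1434 in wild type MEFs (0.33).

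Genes of small nucleolar RNAs lie inside the span of some of these genes, and this was examined with the annotation of GRCm38.p6. Introns and strand were not examined. Of the 40 genes, 6 held at least 1 annotated snoRNA gene on the same span, namely Ncl, Nop56, Nop58, Dkc1, Wdr43 and Gnl3. All of these 6 were higher in knock out MEFs with the deposited signals, with a median log2 ratio of 0.45, and all 6 reached 500. Of the 26 other members at 500 or more, 19 were higher, with a median of 0.15. Outside the 40 and at the same minimum, 9 of 11 hosts that encode cytosolic ribosomal proteins were higher, with a median of 0.17, and 58 of 120 further protein-coding hosts were higher, with a median of -0.01. Of 4837 protein-coding genes that are no host, 41.8% were higher, with a median of -0.06. Ncl holds Snora75 and Snord82, Nop58 holds Snord11 and Snord70 among others, and Nop56 holds Snord110 and Snord57 among others. This grouping was made after the values had been seen, and the signals of the snoRNAs themselves were not analysed here.

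The E-box was also looked for in all members, since Myc is one of them. The letters searched were CACGTG, which are their own reverse complement, in the 250 bases before and the 50 bases after each annotated start. Of the 32 members with a promoter in the RefSeq table, 7 held it (21.9%), against 8.09% of all genes there. That background was not limited to genes with a signal in these cells, whereas every member had at least 100 on both arrays. The missing members were Rrp12, Gnl2, Rrs1, Fbl, Myc, Tcof1, Npm1 and Bop1. The windows of 30 bases below show these sites in capitals, 5′ to 3′ on the strand of the gene. Imp4 and Wdr43, which carry one, differ in direction on their reported probe sets.
Imp4: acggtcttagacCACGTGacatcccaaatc
Nop2: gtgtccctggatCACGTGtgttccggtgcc
Utp20: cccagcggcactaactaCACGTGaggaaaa
Pes1: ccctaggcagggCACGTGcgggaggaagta
Mybbp1a: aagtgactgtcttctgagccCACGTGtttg
Rrn3, distal: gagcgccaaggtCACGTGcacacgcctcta
Rrn3, proximal: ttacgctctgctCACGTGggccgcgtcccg
Wdr43: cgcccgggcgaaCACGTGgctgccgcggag
They lie at chr1:34439696-34439725 on the plus strand (Imp4), chr6:125131811-125131840 on the plus strand (Nop2), chr10:88826765-88826794 on the minus strand (Utp20), chr11:3963965-3963994 on the plus strand (Pes1), chr11:72441347-72441376 on the plus strand (Mybbp1a), chr16:13780472-13780501 and chr16:13780639-13780668 on the plus strand (Rrn3), and chr17:71616220-71616249 on the plus strand (Wdr43). With the first base of the transcript counted as 0, the E-box began at -121 in Imp4, at -60 in Nop2, at -215 and -48 in Rrn3, and at 2, 17, 37 and 40 in Pes1, Wdr43, Utp20 and Mybbp1a.

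The ratios of genes with and without the E-box were set side by side without a test. The 7 genes with it had a median log2 ratio of 0.14 and 6 of them were higher in knock out MEFs, and the 25 without it had a median of 0.24. Imp4, the lowest of the 40 on its reported probe set, carries an E-box, and Nop58 and Nop56, the highest, do not. The other probe set of Imp4 with at least 100 was at 0.28. A part of Myc in these ratios was not tested. The ETS core CCGGAA or TTCCGG was found in 13 of the 32 members (40.6%), against 16.7% of all genes, and the medians were 0.16 with it and 0.22 without it. TATAAA or TTTATA was found in 2 of the 32 (6.25%), Dkc1 and Pes1, against 15.7% of all genes. As for the E-box, these shares over all genes were not limited to genes with a signal in these cells. The search was chosen after the values had been seen, and a match describes letters and not a bound site.

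A wider list of ribosome biogenesis genes without the 40 was less clearly shifted. Of its 127 measured genes, 68 reached 500 on at least 1 array. Of these 68, 40 were higher in knock out MEFs and 28 lower, with a median log2 ratio of 0.11. Of all 5014 genes at that minimum, 42.2% were higher, with a median of -0.05. The median of the 68 was -0.00052 with median centring and -0.29 with the spike-in scaling, against -0.16 and -0.44 for all genes. Only 2 of the 68 were over 1.5-fold apart, both higher in knock out MEFs. They were Exosc9, a subunit of the RNA exosome, with 784 in knock out MEFs and 379.8 in wild type MEFs (1.04), and Rsl1d1, a nucleolar protein with a ribosomal L1 domain, with 1114 in knock out MEFs and 650.1 in wild type MEFs (0.78). By role, 20 of 28 small subunit genes, 7 of 10 exosome genes, 10 of 21 large subunit genes, 2 of 5 polymerase I genes, 1 of 1 box H/ACA gene and none of 3 box C/D genes were higher with the deposited signals, and the median of the 3 box C/D genes was -0.18. At the same minimum of 500, 9 of 12 large subunit, 2 of 4 small subunit and 3 of 3 box C/D genes of the 40 were higher. At this minimum the box C/D genes of the wider list thus lay on the other side of 0 from those of the 40. They were Ruvbl1, Ruvbl2 and Znhit6, named after their values were seen, and not genes of the core proteins Nop58, Nop56 and Fbl. The difference was not tested. With a minimum of 100, 24 of 45 large subunit and 28 of 47 small subunit genes of the wider list were higher. Of its box C/D genes, 2 of 5 were then higher, with a median of -0.08, against 3 of 4 among the 40, so that both groups were mixed.

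**Figure D4:**
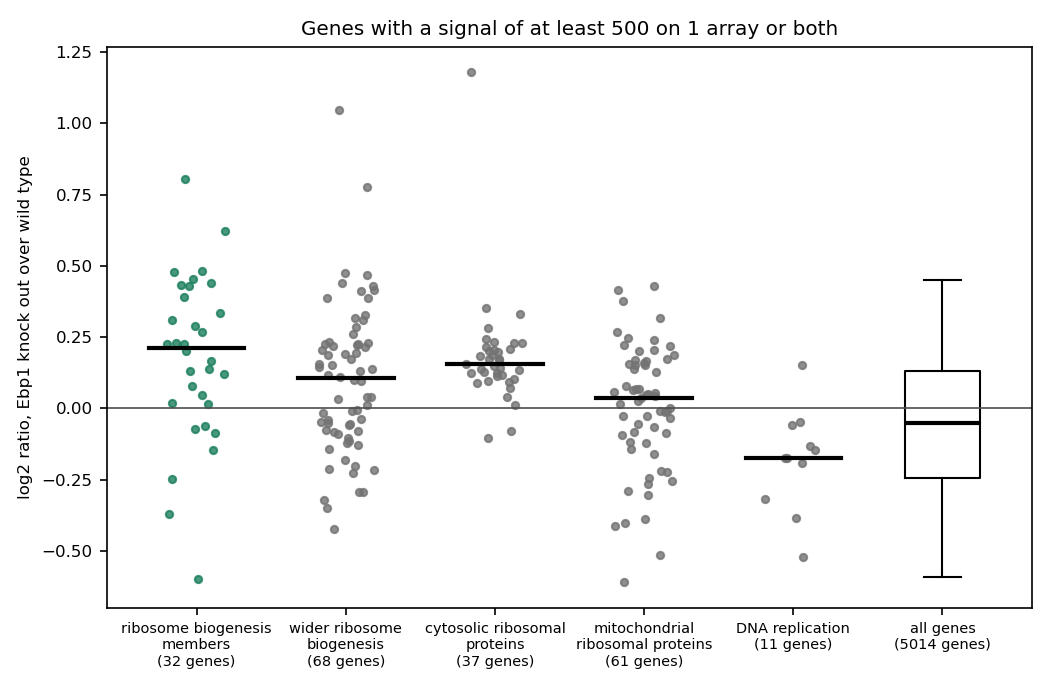
Log2 ratio, knock out over wild type, for the genes of each list that reached 500 on at least 1 array, with 1 point per gene and the median of the list as a line. The box for all genes spans the quartiles with the median as a line, and its whiskers end at the 5th and 95th percentiles. The 40 genes contribute 32 points with a median of 0.21, the wider list has 0.11, and DNA replication genes lie lower at -0.17, all with the deposited signals, and every point would lie 0.39 lower with the spike-in scaling.

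Other lists give the setting of these values. Of 37 cytosolic ribosomal protein genes at 500 or more, 35 were higher in knock out MEFs, with a median log2 ratio of 0.16, which was 0.02 after quantile normalization, 0.05 with median centring and -0.24 with the spike-in scaling. The 32 members at the same minimum had a median of 0.21, and of 0.11 with median centring and -0.18 with the spike-in scaling. For all genes at this minimum the median was -0.05, and -0.04 after quantile normalization, -0.16 with median centring and -0.44 with the spike-in scaling. Of 61 mitochondrial ribosomal protein genes, 34 were higher, with a median of 0.04. Of 11 DNA replication genes, 1 was higher, Pcna, named after its values were seen, with 2805 in knock out MEFs and 2524 in wild type MEFs (0.15), and 10 were lower, with a median of -0.17. The difference between any of these lists and the 40 genes was not tested, since each genotype has 1 array.

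**Figure D5:**
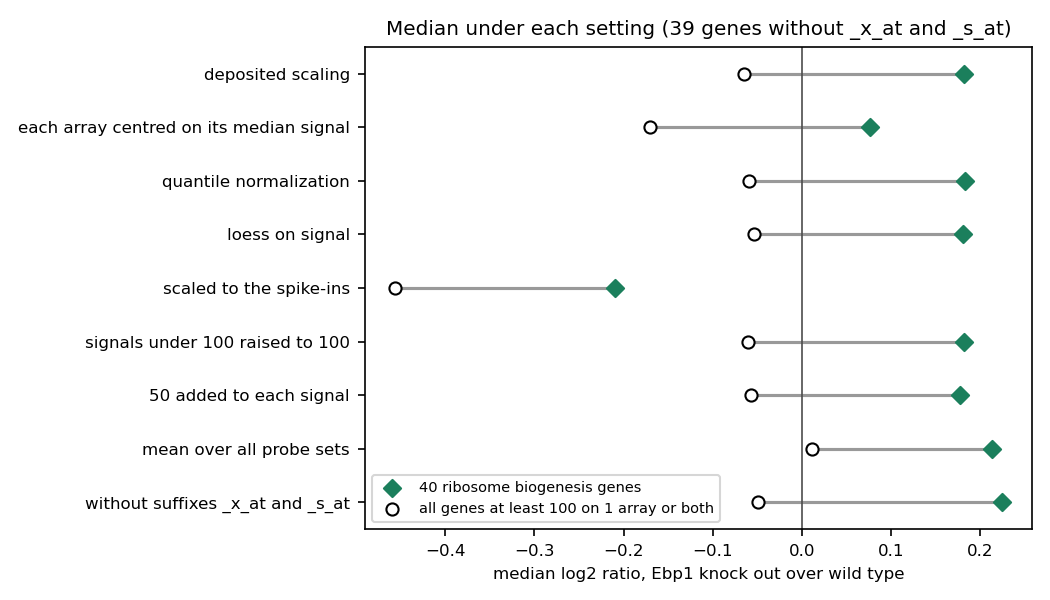
Median log2 ratio (knock out over wild type) of the 40 genes and of all genes with at least 100 on at least 1 array (horizontal axis) under each way of processing (vertical axis). The 40 genes lie above all genes in each, at 0.18 against -0.06 with the deposited signals and at -0.21 against -0.46 with the spike-in scaling.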

How the data were processed

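The authors deposited 1 signal per probe set and array, a linear intensity from MAS5, with each array scaled to the same target (Microarray Suite 5.0 in the methods). The methods name a human array, but the identifiers in the table belong to a mouse design. Detection calls and p-values were not used. Of 45037 probe sets without 64 controls, 34945 had 1 gene symbol, 932 had several and 9160 were unnamed here, and all 40 members matched GRCm38.p6. Depth of an array cannot be counted, and 1 array per genotype limits the precision.

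The signal ratio of knock out over wild type was taken as log2, from the probe set of a gene with the highest mean log2 signal. A minimum of 500 on at least 1 array was used, signals under 100 were treated as low, and folds of 1.5 and 2 were counted. Any member could be named, with full signals for those over 1.5-fold apart, the 3 highest and 3 lowest ratios at the minimum, the brightest of each role and those whose probe sets differ in sign, and, outside them, Pa2g4 and up to 5 genes per direction of the wider list over 1.5-fold apart at the minimum. Members and lists were chosen with earlier results of these data known, and the snoRNA host and promoter descriptions were added after the values were seen. No test was run. The steps were tested on simulated data. Alternatives were median centring, quantile normalization, loess (fraction 0.3), spike-in scaling, signals raised to 100, 50 added, the mean over all probe sets and no probe sets ending in _x_at or _s_at. Python 3.11.15, numpy 2.4.6, pandas 2.3.3, scipy 1.17.1, statsmodels 0.14.6 and matplotlib 3.10.9 were used.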

Additional observations from a re-analysis of the deposited data

How the results depend on the processing

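With the spike-in scaling the median log2 ratio was -0.18 for the 32 members at 500 or more, of which 8 were higher in knock out MEFs. It was -0.29 for the wider list and -0.24 for cytosolic ribosomal protein genes, so all were below 0. The median of all genes at 500 was then -0.44, and 6.86% of them were higher. With median centring, which lowers every log2 ratio by 0.11, the medians of the same lists in that order were 0.11, -0.00052 and 0.050. The median of all genes at 500 was then -0.16. Quantile normalization gave 0.022 for cytosolic ribosomal protein genes, against -0.04 for all genes at 500. In the other settings the medians kept their direction but not always their size, at 0.18 to 0.23 for the members, 0.041 (at least 500 on both arrays) to 0.18 (without _x_at and _s_at) for the wider list, and 0.067 (loess) to 0.17 for cytosolic ribosomal protein genes. Among 319 values of single members over the settings run, the sign differed from that with the deposited signals in 36, of which 21 came from the spike-in scaling, and 3 values moved by over 1.5-fold, all with the mean over all probe sets, where Bop1 was at 0.59, Ubtf at 0.37 and Ebna1bp2 at -0.45. These means include probe sets under 100 on both arrays, without which Ubtf was at -0.37 and Ebna1bp2 at 0.12, as with the deposited signals in sign. Of the 40 members, 3 were over 1.5-fold higher with the deposited signals, against 1 with median centring and none with the spike-in scaling, where 6 were over 1.5-fold lower. The shares of all genes over 1.5-fold were not computed with these scalings, so the counts do not set the members apart. The median of all genes with at least 100 was -0.17 with median centring and -0.46 with the spike-in scaling. No paired analysis was possible because each genotype has a single array. Ratios of dim probe sets spread more widely. The standard deviation of log2 ratios across probe sets was 0.49 at mean signals of 100 to 500, where 9 members lie. It was 0.36 at 500 to 2000, where 28 members lie, and 0.25 above 2000, where 3 lie. This spread mixes differences between the genotypes with noise, so it does not give the precision of a single ratio.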

Other observations

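Genes of the Myc network and noncoding genes that host snoRNAs, all outside the 40, are given here and were named after their values were seen. Of the 11 Myc network genes listed, 9 had at least 100 on at least 1 array, of which 3 were higher in knock out MEFs, with a median log2 ratio of -0.13. Max, the partner with which Myc binds DNA, had 625 in knock out MEFs and 328 in wild type MEFs (log2 ratio 0.93) on its single probe set. Mxd4, which competes with Myc for Max, had 529 in knock out MEFs and 847 in wild type MEFs (-0.68), with ratios between -1.25 and 0.19 on its other probe sets. The other 7 of the 9 had ratios between -0.37 for Mlxip and 0.29 for Mxd3. Mycn and Mycl were under 100 on both arrays. With the spike-in scaling, 0.39 is taken from each of these ratios.

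Noncoding genes that host snoRNAs did not share a direction, with 5 of 8 higher in knock out MEFs and a median log2 ratio of 0.16. Gas5 had 3884 in knock out MEFs and 3075 in wild type MEFs (0.34) and was higher on all 4 of its probe sets, with ratios up to 0.57. Snhg12 had 969 in knock out MEFs and 702 in wild type MEFs (0.46). Snhg6 had 1032 in knock out MEFs and 1553 in wild type MEFs (-0.59). For Snhg1 the reported probe set had 2015 in knock out MEFs and 2274 in wild type MEFs (-0.17), while its other 4 probe sets were higher, with ratios between 0.21 and 0.39. All these ratios are with the deposited signals.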
